A study of Homo sapiens with 54 samples.

Results

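Gene expression was compared between 22Rv1 prostate cancer cells that received estradiol (E2, 100 nM) together with enzalutamide (Enza, 1 µM) and 22Rv1 cells that received enzalutamide alone. These 6 libraries, 3 per group, were chosen by their treatment labels, out of 54 libraries of total RNA from 3 cell lines in 18 groups. Both groups carried enzalutamide, were wild type per the genotype label, and were harvested after 12 h of treatment in medium with serum, which holds steroids of its own. 22Rv1 is a single human line from a xenograft that relapsed after castration, and the labels call the libraries of a group biological triplicates without naming separate cultures, so p-values measure the spread between such samples of 1 line. The effect of E2 without enzalutamide in 22Rv1 (E2 against the ethanol vehicle) and the same addition of E2 to enzalutamide in LNCaP, a hormone-responsive line, and in C4-2, its castration-resistant derivative, served for comparison, each with 3 libraries against 3.

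Enzalutamide binds the hormone pocket of the androgen receptor, a steroid-activated transcription factor, and blocks its activation. In prostate cells the receptor drives genes for secreted kallikreins, lipid enzymes, transporters and its own co-chaperone FKBP5, and represses others. Estradiol is the ligand of the estrogen receptors, of which prostate epithelium expresses ESR2, and it can also bind some forms of the androgen receptor. 22Rv1 cells are known for making truncated forms of the androgen receptor that lack the hormone pocket.

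The 6 libraries held 32.8 to 45.8 M recovered reads. Levels are read counts divided by the library's effective size and set to a common scale (CPM), and fold changes are on the log2(CPM + 0.5) scale with the SE after ±, which understates the change of genes with few CPM. Luminal markers were present in every library: KRT18, a luminal keratin, lay at 198, 200.3 and 214 CPM with E2+Enza and at 196, 211 and 189 CPM with Enza, and was not called (0.04 ± 0.05). The basal keratin KRT14 had 0 reads in all 6 libraries, and the leukocyte list summed to 5.54 to 7.07 CPM with E2+Enza and 6.40 to 6.67 CPM with Enza. Defining markers such as KRT5, TP63, PTPRC, CD3E, COL1A2 and DCN had no row in the data. Only 5 of 10 basal, 5 of 10 leukocyte and 8 of 12 fibroblast genes had one, so the sums cover part of each list. The fibroblast list summed to 66.5 to 74.3 CPM with E2+Enza and 42.6 to 45.003 CPM with Enza. FN1, the matrix protein fibronectin, made up most of that sum and rose (0.91 ± 0.07), while COL1A1, a defining fibroblast collagen, lay between 2.44 and 2.61 CPM with E2+Enza and between 2.78 and 3.22 CPM with Enza. In bulk RNA, fewer cells of a kind and less RNA per cell cannot be told apart. The basal list summed to 110 to 117 CPM with E2+Enza and 84.0 to 96.8 CPM with Enza, nearly all of it SFN (0.33 ± 0.06), the gene of stratifin, which luminal cells also express. The share of reads in small RNAs was 10.6 to 12.5% with E2+Enza and 8.08 to 12.4% with Enza, and that in mitochondrially encoded mRNA 2.94 to 4.01% with E2+Enza and 3.98 to 4.71% with Enza. Outside the 6, the fit also held OSU+Enza library 2, with 15.1% of its reads in small RNAs, and vehicle library 3, which were left out together in one alternative.

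Adding E2 to enzalutamide raised 30 of 44 tested genes of the androgen response list and changed others in both directions. That list was chosen with earlier results of these data known. By limma at a Benjamini-Hochberg adjusted p of 0.05, 1180 of 14866 genes were called (7.94%), 611 higher (4.11%) and 569 lower (3.83%). The changes were mostly small, with a median size of 0.33 among called genes, and 41 genes rose (0.276%) and 15 fell (0.101%) by at least 2-fold. In 1147 of the called genes the groups did not overlap, and over all tested genes the E2+Enza libraries lay all above the Enza libraries in 1627 (10.9%) and all below in 1530 (10.3%). Scaling to total reads gave 472 higher and 654 lower, and leaving out Enza library 2 gave 694 higher and 484 lower, while leaving out Enza library 3 gave 433 higher and 544 lower, so the balance between the directions varied with the setting.

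CHRNA2 (chromosome 8, 27459756 to 27479261 on GRCh38.p14), a nicotinic receptor subunit, had the largest rise. It stood at 39.6, 40.2 and 39.5 CPM with E2+Enza, against 3.96, 3.59 and 3.42 CPM with Enza (3.28 ± 0.08, adjusted p = 9.25e-23). The groups were far apart, each with a spread under 1 CPM. MBOAT2 (chromosome 2, 8852690 to 9003684), an acyltransferase of phospholipid remodelling, stood at 76.2, 79.3 and 72.7 CPM with E2+Enza, against 9.69, 11.2 and 11.1 CPM with Enza (2.78 ± 0.07). SLC45A3 (chromosome 1, 205657851 to 205680509), a solute carrier known as prostein, stood at 112, 117 and 121 CPM with E2+Enza, against 26.9, 26.7 and 23.2 CPM with Enza (2.17 ± 0.06). FKBP5 (chromosome 6, 35573590 to 35728583), the co-chaperone of steroid receptors, stood at 501, 468 and 502 CPM with E2+Enza, against 131, 136 and 129 CPM with Enza (1.89 ± 0.05, adjusted p = 1.03e-22). These 4 genes differed several-fold with no overlap between the groups.

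The amino acid transporter SLC38A4 (2.35 ± 0.12) stood at 12.9, 13.4 and 11.7 CPM with E2+Enza and at 2.11, 1.86 and 2.27 CPM with Enza. The adrenergic receptor ADRA2A (2.19 ± 0.10) stood at 47.0, 45.02 and 44.5 CPM with E2+Enza and at 9.62, 9.03 and 10.1 CPM with Enza. Both groups were tight in both genes. The potassium channel KCNMA1 rose by 1.96 ± 0.12, and the metalloreductase STEAP1 by 1.81 ± 0.06. STEAP2, a close relative of STEAP1 that could share some of its reads, rose by 1.37 ± 0.05. F3, the initiator of blood coagulation known as tissue factor, stood at 4.07, 4.18 and 4.17 CPM with E2+Enza, against 0.664, 0.787 and 0.991 CPM with Enza (1.83 ± 0.15). The others of the 15 leading genes were DOCK8, an exchange factor for small GTPases (2.27 ± 0.08), TMCC3, a membrane protein of the endoplasmic reticulum (2.26 ± 0.08), PMEPA1, a brake on TGF-beta signalling (1.88 ± 0.07), the scaffold AKAP12 (1.81 ± 0.09), the ISG15 ligase HERC5 (1.55 ± 0.14) and the zinc finger factor ZBTB16 (1.396 ± 0.06). DOCK8 overlaps its antisense gene DOCK8-AS1, which also rose (0.86), and reads from such a pair cannot be told apart where counting is not stated to use strand. All 15 also rose with E2 in the absence of enzalutamide.

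**Figure D1:**
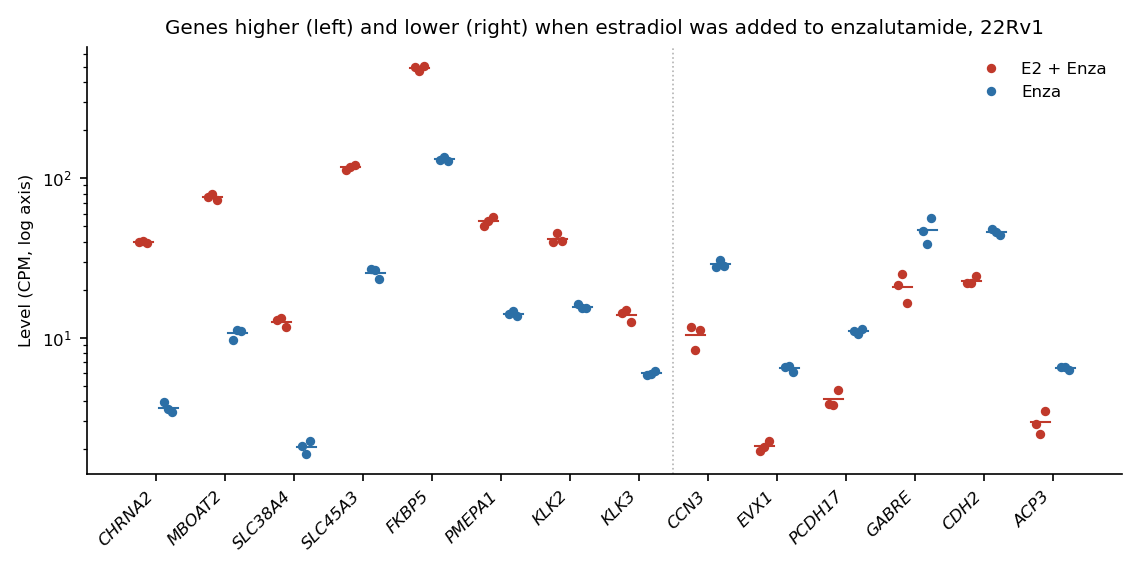
Level (CPM, log axis) of 14 genes in each of the 3 E2+Enza libraries (red) and the 3 Enza libraries (blue) of 22Rv1, with horizontal lines at the group means. In all 14 the groups do not overlap, from CHRNA2 at 39.5 to 40.2 against 3.42 to 3.96 CPM down to KLK3 at 12.6 to 14.8 against 5.85 to 6.23 CPM on the higher side.

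The kallikreins are secreted proteases whose genes lie side by side on chromosome 19, and KLK3 encodes prostate-specific antigen. KLK2 (50873439 to 50880567) stood at 39.7, 45.2 and 40.6 CPM with E2+Enza, against 16.3, 15.3 and 15.3 CPM with Enza (1.39 ± 0.06, adjusted p = 3.71e-16). KLK3 (50854915 to 50860764) stood at 14.4, 14.8 and 12.6 CPM with E2+Enza, against 5.85, 5.90 and 6.23 CPM with Enza (1.15 ± 0.11, adjusted p = 7.4e-09). Every E2+Enza library was above every Enza library in both. KLK4 also rose (0.56). The 2 genes resemble each other in sequence and could exchange reads. Because they moved together, the 250 bases before each gene's start are shown, from RefSeq (GRCh38.p14, plus strand, chr19:50873189-50873438 for KLK2 and chr19:50854665-50854914 for KLK3). Capitals mark a match to GNACA and GTNC set 4 bases apart, a relaxed form of the palindromic element that steroid receptors of the androgen and glucocorticoid type bind.
KLK2: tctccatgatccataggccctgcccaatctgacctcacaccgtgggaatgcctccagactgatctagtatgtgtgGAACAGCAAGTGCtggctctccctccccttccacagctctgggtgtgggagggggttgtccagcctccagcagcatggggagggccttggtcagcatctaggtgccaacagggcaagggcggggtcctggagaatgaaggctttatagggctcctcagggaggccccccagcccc
KLK3: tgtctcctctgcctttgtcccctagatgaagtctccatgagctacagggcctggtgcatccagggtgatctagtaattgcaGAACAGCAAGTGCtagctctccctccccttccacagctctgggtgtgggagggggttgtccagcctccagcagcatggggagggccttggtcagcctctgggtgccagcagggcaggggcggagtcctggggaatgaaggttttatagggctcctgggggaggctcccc
The marked letters were GAACAGCAAGTGC in both, at positions -175 to -163 before the start in KLK2 and -169 to -157 in KLK3, and 205 of 262 aligned columns (78.2%) were identical between the stretches. The relaxed motif was chosen after these promoters were seen and occurred, on either strand, in 1.81% of 35116 promoters of the same length. The stricter GNACA and TGTNC set 3 bases apart, each match of which is also a match of the relaxed form, occurred in 0.327%, and the estrogen receptor element, GGTCA and TGACC set 3 bases apart, in 0.0399%. A match describes letters and not binding.

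Over the androgen response list as a whole, 30 of 44 tested genes rose (68.2%, against 4.11% of all genes) and 1 fell, with a median of 0.70 against 0.00 over all genes. Because the list was chosen with earlier results of these data known, these counts describe it and are not a test. Of the 49 symbols listed, 3 more (TRPM8, STEAP4 and CCDC141) were below the filter of 1 CPM in 3 libraries, and 2 older symbols had no row. TMPRSS2, a membrane serine protease, stood at 18.7, 18.9 and 18.4 CPM with E2+Enza, against 15.3, 15.2 and 12.6 CPM with Enza (0.37 ± 0.08, adjusted p = 0.00196). Every E2+Enza library lay above every Enza library, by much less than in the leading genes. HPGD, which breaks down prostaglandins (1.00), ACSL3, an acyl-CoA synthetase (0.90), and ERRFI1, an inhibitor of the EGF receptor (0.90), also rose. The one that fell was ADAMTS1, a secreted protease (-0.31). Some classical members moved little, among them CAMKK2 (0.00) and ABCC4 (-0.09), neither called. The list's median lay between 0.59 and 0.71 under every alternative setting run.

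The receptor genes ESR2 and NR3C1 were not called. ESR2 was low, at 1.33, 2.65 and 1.97 CPM with E2+Enza and 2.25, 1.71 and 2.40 CPM with Enza (-0.10, 95% interval -0.43 to 0.22), and ESR1 was not analysed here. NR3C1, the glucocorticoid receptor, lay at 22.9 to 25.8 CPM with E2+Enza and 22.9 to 26.3 CPM with Enza (-0.03 ± 0.07). In both genes the groups overlapped. Among co-regulators the corepressor NCOR1 rose (0.29) and the coactivator NCOA2 fell (-0.20), and no call was made for HSP90AA1 (0.05) or HSP90AB1 (-0.04), the chaperones that hold unliganded receptors.

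Among genes that respond to glucocorticoid as well as androgen, 14 were tested, with a median of 0.59. In this list 8 rose (57.1%, against 4.11% of all genes) and 1 fell (7.14%, against 3.83%). Besides FKBP5, ZBTB16 and ERRFI1, which the androgen list also holds, the clock gene PER1 stood at 28.0, 26.6 and 25.7 CPM with E2+Enza, against 13.2, 14.3 and 13.9 CPM with Enza (0.93 ± 0.07). The transcription factors CEBPD (0.73) and KLF9 (0.71), the lipase inhibitor ANGPTL4 (0.71) and the leucine zipper protein TSC22D3 (0.46) rose, and CRISPLD2 fell (-0.35). The kinase SGK1 (0.20) and the phosphatase DUSP1 (0.01) were not called.

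The ER-activated list holds genes that estradiol induces through its own receptor in other tissues. Of 19 tested, 3 rose (15.8%, against 4.11% of all genes) and 1 fell (5.26%, against 3.83%), with a median of -0.01, and 7 others, among them PGR and TFF1, were below the filter. MYBL1 rose (0.35) and so did SIAH2 (0.24), and the growth factor AREG fell (-0.36), and the calls of SIAH2 and AREG were each lost in 6 of 17 settings. GREB1, a cofactor of the estrogen receptor that androgen also induces in LNCaP, stood at 7.35, 8.24 and 7.85 CPM with E2+Enza, against 6.35, 6.21 and 6.52 CPM with Enza (0.28 ± 0.08, adjusted p = 0.0328). Its call was lost in 7 of 17 alternative settings, among them total read scaling, so the rise in 22Rv1 was at the edge of the threshold. The list had 1 higher gene under total read scaling and without Enza library 1, Enza library 3 or E2+Enza library 2.

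Among genes that fell, LINC00639, a long non-coding RNA (chromosome 14, 38749339 to 38916882), changed most. It stood at 0.339, 0.516 and 0.128 CPM with E2+Enza, against 2.58, 2.25 and 2.53 CPM with Enza (-1.86 ± 0.18). At such low levels the size hangs on the pseudocount, and it ran from -0.94 to -3.08 over the settings. CCN3, a matricellular protein, stood at 11.7, 8.36 and 11.2 CPM with E2+Enza, against 27.9, 30.5 and 28.4 CPM with Enza (-1.44 ± 0.09). The homeobox factor EVX1 stood at 1.95, 2.07 and 2.25 CPM with E2+Enza, against 6.54, 6.67 and 6.08 CPM with Enza (-1.42 ± 0.11). The groups of each were clearly apart. Further down were the protocadherin PCDH17 (-1.32 ± 0.11), the adhesion protein AMIGO2 (-1.01 ± 0.07), the synaptic organiser CBLN4 (-1.12 ± 0.16) and the liprin PPFIA2 (-0.99 ± 0.12), which all fell. GABRE, a GABA receptor subunit, stood at 21.3, 25.0 and 16.6 CPM with E2+Enza, against 46.9, 38.6 and 56.3 CPM with Enza (-1.16 ± 0.11), the widest spread among these. The kinase BMX (-1.08), the bile acid receptor NR1H4 (-1.02), TMEM45A (-1.08) and PCED1B (-1.04) fell as well. PCED1B overlaps AMIGO2 by 339 bases. The phosphate transporter genes SLC17A4 (-1.32) and SLC17A1 (-1.001) both fell, but SLC17A4 lies inside the span of SLC17A1 and their reads may be shared. All 15 leading genes of this side also fell with E2 in the absence of enzalutamide.

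Luminal prostate genes moved in both directions. Of 17 tested in that list, 3 rose (17.6%, against 4.11% of all genes), among them KLK3 and TMPRSS2. In the same list 6 fell (35.3%, against 3.83%), and the list's median was -0.12. ACP3, the prostatic acid phosphatase, stood at 2.88, 2.51 and 3.49 CPM with E2+Enza, against 6.52, 6.52 and 6.31 CPM with Enza (-1.01 ± 0.11). GATA3 stood at 120, 116 and 123 CPM with E2+Enza, against 154, 167 and 156 CPM with Enza (-0.41 ± 0.05). GATA2 (-0.45) and HOXB13 (-0.19), 2 other transcription factors of the lineage, fell too, as did FOLH1, the prostate-specific membrane antigen, which has a near-identical copy (-0.36), and CDH1, E-cadherin (-0.18). FOXA1 (0.09), KRT8 (-0.14) and EPCAM (-0.12) were not called. The list of genes known as repressed by hormone in LNCaP had 2 higher (11.8%) and 5 lower (29.4%) of 17. CDH2, N-cadherin, stood at 21.9, 22.1 and 24.5 CPM with E2+Enza, against 47.7, 45.7 and 43.8 CPM with Enza (-0.99 ± 0.07), and the transcription factors NFIB (0.54) and SOX9 (0.46) rose. MYC, the growth regulator, fell to 224, 230 and 245 CPM with E2+Enza, against 305, 312 and 271 CPM with Enza (-0.34 ± 0.06).

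**Figure D2:**
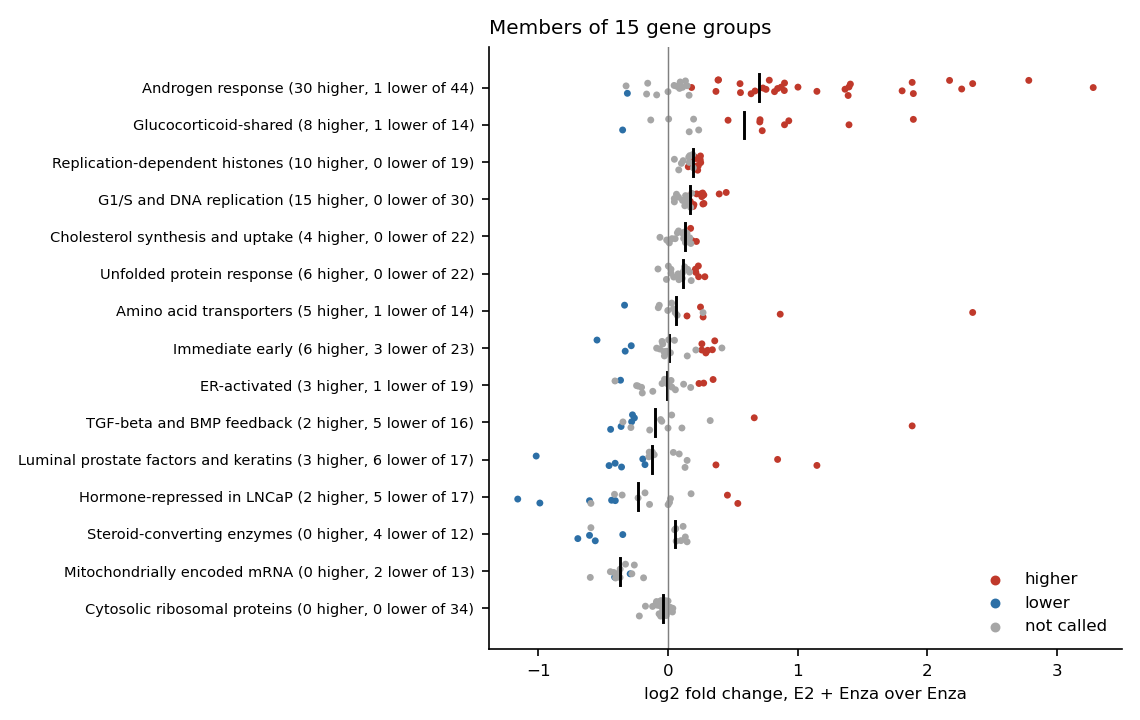
Log2 fold change (E2+Enza over Enza, x axis) of each tested member of 15 gene groups in 22Rv1, red where called higher, blue where called lower and grey where not called, with a black bar at the group's median. The androgen response genes reach from -0.32 to 3.28 around a median of 0.70, while the cell cycle, histone and cholesterol genes lie in narrow bands below 0.5.

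Steroid-converting enzymes had 0 higher and 4 lower of 12 (33.3%, against 3.83% of all genes). AKR1C3, which makes testosterone from androstenedione, stood at 10.3, 10.4 and 13.0 CPM with E2+Enza, against 17.8, 19.1 and 18.1 CPM with Enza (-0.69 ± 0.10). AKR1C2 (-0.56 ± 0.07), AKR1C1 (-0.35 ± 0.07) and UGT2B15, which conjugates androgens for removal (-0.60 ± 0.09), fell as well. The 3 AKR1C genes are close copies of each other, as UGT2B15 is of UGT2B17 (-0.59, not called), so the split of reads among them is uncertain. The list's median was 0.06, on the other side of 0 from the called genes.

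Secreted regulators changed in part. IGF1, the insulin-like growth factor, stood at 21.3, 23.8 and 21.3 CPM with E2+Enza, against 8.32, 8.38 and 8.42 CPM with Enza (1.35 ± 0.07), and its adapter IRS2 rose (0.31 ± 0.05) while GRB10, which restrains the receptor, fell (-0.35 ± 0.05). These were 3 calls among 9 tested genes of the IGF axis, 22.2% higher (against 4.11% of all genes) and 11.1% lower (against 3.83%). In the TGF-beta and BMP list PMEPA1 and ID4 (0.67 ± 0.06) rose (12.5%) and 5 of 16 fell (31.2%). Those that fell were the inhibitors SMAD6 (-0.44), SMAD7 (-0.28) and SKIL (-0.27), the target ID2 (-0.36) and the ligand TGFB1 (-0.26). PMEPA1 stood at 50.2, 53.7 and 56.8 CPM with E2+Enza, against 14.1, 14.7 and 13.6 CPM with Enza. Of 13 WNT readouts, SOX9 and the antagonist DKK1 (0.68) rose (15.4%), and RNF43 (-0.33), TCF7L2 (-0.28) and SOX4 (-0.21) fell (23.1%). In the neuroendocrine list SYT4, a synaptotagmin, stood at 113, 118 and 136 CPM with E2+Enza, against 204, 216 and 190 CPM with Enza (-0.73 ± 0.07). The splicing factor SRRM4 fell (-0.50), and 4 others of 6 were not called, so that 33.3% of this list fell.

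Lipid and amino acid genes rose selectively. Of 19 fatty acid and phospholipid genes, MBOAT2, ACSL3 and the elongase ELOVL5 (184, 184 and 192 CPM with E2+Enza, against 114, 123 and 108 CPM with Enza, 0.69 ± 0.05) rose and ELOVL6 fell (-0.19). The synthesis enzymes FASN (0.00), ACACA (-0.03) and SCD (0.09) were not called. Of 22 cholesterol genes 4 rose, by small amounts, MVD (0.22), INSIG1 (0.19), IDI1 (0.18) and MSMO1 (0.16), the last with its call lost in 8 of 17 settings. This count was 8 without Enza library 2 and 2 without Enza library 3, E2+Enza library 2 or E2+Enza library 3. Of 14 amino acid transporters 5 rose, led by SLC38A4 and SLC43A1 (0.87 ± 0.10), and the taurine transporter SLC6A6 fell (-0.33). The unfolded protein response list, which marks load on the endoplasmic reticulum, had 6 higher and 0 lower of 22 with a median of 0.12, among them HERPUD1 (0.24 ± 0.04), SEC24D (0.29 ± 0.06) and the chaperone HSPA5 (0.21). It had 3 without E2+Enza library 3. The ATF4 list had 5 higher and 1 lower of 18, which came to 1 to 3 higher when any of 5 of the 6 libraries was left out. The glucose transporter SLC2A1 (1733, 1732 and 1810 CPM with E2+Enza, against 1379, 1462 and 1272 CPM with Enza) rose by 0.36 ± 0.06, the 1 call among 18 glycolysis and hypoxia genes. That is 5.56%, near the 4.11% of all genes that rose. Shares called higher were 15.8% for fatty acid, 18.2% for cholesterol, 35.7% for transporter, 27.3% for unfolded protein response and 27.8% for ATF4 genes. Shares called lower were 5.26%, 7.14% and 5.56% for fatty acid, transporter and ATF4 genes, against 3.83% of all genes.

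Genes of DNA replication rose by small amounts. Of 30 in the G1/S list 15 rose and 0 fell, with a median of 0.17 and values from 0.05 to 0.45. The cyclin CCNE2 stood at 58.6, 57.0 and 60.03 CPM with E2+Enza, against 42.5, 44.3 and 41.4 CPM with Enza (0.45 ± 0.05). Its span shares 895 bases with NDUFAF6, which also rose (0.36). RRM2, a subunit of ribonucleotide reductase, stood at 257, 245 and 266 CPM with E2+Enza, against 191, 210 and 183 CPM with Enza (0.40 ± 0.05). The groups did not overlap in either. Replication-dependent histone genes, which have many near-identical copies, had 10 higher of 19 (52.6%), with a median of 0.19 and H2BC11 at 0.25 ± 0.05. G2/M genes had 2 of 25 (8.0%, against 4.11% of all genes), with a median of 0.09. These were MYBL2 (0.22) and CDC20 (0.15), whose calls were lost in 1 and 8 of 17 settings. That count was 0 without Enza library 3, 1 without Enza library 1 or E2+Enza library 1 and 4 without Enza library 2 or E2+Enza library 2. The G1/S count was 9 without Enza library 3 or E2+Enza library 3 and 23 under TMM scaling. The histone count was 2 without E2+Enza library 3, 4 without Enza library 1, 5 without Enza library 3 and 6 without E2+Enza library 1. The medians stayed between 0.14 and 0.20 for G1/S genes and between 0.14 and 0.22 for histones in every setting run. Mitochondrially encoded mRNAs lay on the other side, with 2 of 13 called lower (15.4%, against 3.83% of all genes) and a median of -0.37, from -0.60 to -0.19. ATP6 stood at 1661, 2269 and 1699 CPM with E2+Enza, against 2219, 2096 and 3231 CPM with Enza, the groups overlapped, and the call was lost in 8 of 17 settings. The number of mitochondrial calls was 0 without Enza library 3, E2+Enza library 1 or E2+Enza library 3, 1 without Enza library 1, 8 without Enza library 2 and 9 without E2+Enza library 2.

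No call was made by limma among 34 cytosolic ribosomal protein genes (median -0.04), 24 nuclear genes of oxidative phosphorylation (0.02), 13 interferon genes (-0.01) or 13 heat shock genes (0.02). At an unadjusted p of 0.05, 2806 genes of the whole table passed. Single calls came from the NF-kappaB list (NFKBIA, its feedback inhibitor, 0.29), the oxidative stress list (GCLC, of glutathione synthesis, 0.38), the polyamine list (AMD1, 0.35) and the aryl hydrocarbon receptor list (CYP1A2, -0.53). They made up 10.0%, 7.69%, 8.33% and 16.7% of the genes tested in these lists, in that order. Of 20 p53 targets SESN2 (0.22) and TP53INP1 (0.16) rose (10.0%, against 4.11% of all genes) and BTG2 fell (-0.33, 5.00%, against 3.83%). The calls of SESN2 and TP53INP1 were lost in 4 and 9 of 17 settings. TP53INP1 shares 23407 bases of its span with NDUFAF6, which also rose (0.36), so its reads are uncertain. Of 17 genes of MAPK and growth factor feedback, ERRFI1, PHLDA1 (0.49) and ERBB2 (0.21) rose (17.6%) and AREG and ETV4 (-0.25) fell (11.8%). Among other genes named above, the calls of SFN, AKR1C1 and ETV4 were lost in 1 of 17 settings, those of IDI1, INSIG1 and NCOA2 in 2 and that of ELOVL6 in 3.

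The effect of E2 in the presence of enzalutamide was set beside its effect in the absence of the drug, which rests on other libraries (E2 against vehicle). Across the 14866 genes the log2 fold changes had r = 0.65, a description over genes that are not independent replicates. Of the 611 genes that rose with enzalutamide present, 509 also rose without it (83.3%), which is 20.04% of the 2540 that rose there (17.1% of all genes). Of the 569 that fell, 341 also fell without it (59.9%), or 21.6% of the 1578 (10.6%). A test of the difference, the effect with enzalutamide minus that without, called 63 genes (0.424%), 20 higher (0.135%) and 43 lower (0.289%). At an unadjusted p of 0.05 it had 2103. The number was 21 to 35 without Enza library 1 or 2, E2+Enza library 1 or 2, E2 library 1 or 2 or vehicle library 1 or 2. It was 350 without Enza library 3 and 335 without E2+Enza library 3, and 109 without OSU+Enza library 2 and vehicle library 3. Under total read scaling it was 39, of which 20 were higher and 19 lower, and after cyclic loess the split was 25 higher and 34 lower.

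Immediate early genes, transcription factors that serum and growth factors switch on within minutes, showed the largest of these differences. FOS stood at 73.4, 59.6 and 57.3 CPM with E2+Enza and at 65.8, 50.5 and 55.2 CPM with Enza, groups that overlapped (0.15 ± 0.09, adjusted p = 0.424). Without the drug it stood at 35.2, 35.3 and 44.8 CPM with E2 and at 107, 88.2 and 89.8 CPM with vehicle, and the E2 effect differed by 1.44 ± 0.13 (adjusted p = 2.75e-07). EGR1 stood at 112, 107 and 99.3 CPM with E2+Enza and at 126, 112 and 153 CPM with Enza (-0.28 ± 0.08, adjusted p = 0.0243), a call lost in 7 of 17 settings. Without the drug EGR1 stood at 92.1, 98.5 and 110 CPM with E2 and at 245, 230 and 216 CPM with vehicle, a difference in effect of 0.92 ± 0.11. Both genes were highest in the vehicle libraries, and FOS was lowest with E2 alone. FOSB (1.54) and EGR3 (1.26) differed in the same direction, and JUN stood at 73.0, 69.4 and 65.4 CPM with E2+Enza, against 51.2, 54.1 and 58.3 CPM with Enza (0.34 ± 0.06, a difference of 0.54 ± 0.08). Within the immediate early list of 23, 6 rose with E2 in the presence of the drug (26.1%, against 4.11% of all genes). Among them were JUN, KLF6 (0.36) and ATF3 (0.29). In this list 3 fell (13.0%, against 3.83%), EGR1, BTG2 (-0.33) and NR4A2 (-0.55). The counts were 3 higher without Enza library 3 or E2+Enza library 1, and 1 lower without Enza library 1 or E2+Enza library 3. The 250 bases before the start of EGR1 are shown for the element through which serum acts on it (RefSeq, GRCh38.p14, plus strand, chr5:138465229-138465478). Capitals mark 2 CArG boxes, the binding motif of serum response factor, at -105 to -96 and -83 to -74, a motif found in 1.16% of the 35116 promoters.
EGR1: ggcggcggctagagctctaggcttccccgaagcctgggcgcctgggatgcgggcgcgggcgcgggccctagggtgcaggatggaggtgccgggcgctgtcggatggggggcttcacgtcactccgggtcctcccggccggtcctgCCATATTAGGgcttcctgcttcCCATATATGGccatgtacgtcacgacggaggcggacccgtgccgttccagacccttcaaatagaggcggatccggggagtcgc

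**Figure D3:**
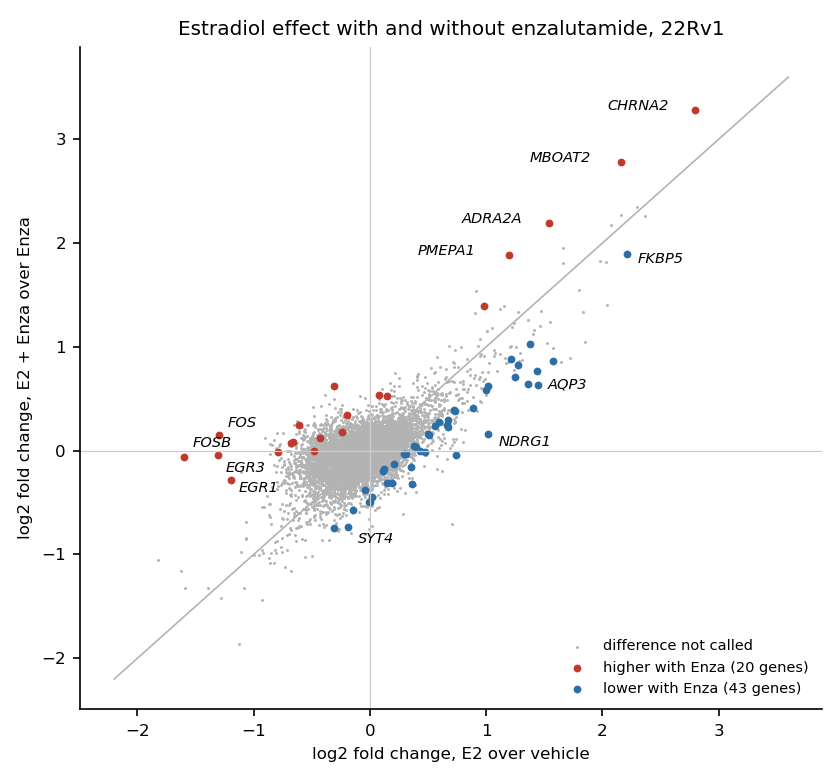
Log2 fold change of each of 14866 genes with E2 in the presence of enzalutamide (E2+Enza over Enza, y axis) against that in its absence (E2 over vehicle, x axis) in 22Rv1, with the 63 genes whose effect differed in colour (red 20 higher and blue 43 lower with the drug) and a line of equal effect. FOS (0.15) and EGR1 (-0.28) lie near the middle of the y axis and at -1.29 and -1.20 on the x axis, and CHRNA2 and MBOAT2 lie above the line.

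Among the 44 tested androgen response genes the difference (with minus without the drug) was called higher in 4 and lower in 5. Over all genes 0.135% were called higher and 0.289% lower. ADAMTS1, among the 5, changed sign, from 0.15 without the drug to -0.31 with it. The list's median was 0.70 with the drug and 0.92 without it. Larger effects with the drug included the following. PMEPA1 stood at 75.4, 71.8 and 63.3 CPM with E2 and at 29.95, 29.02 and 31.6 CPM with vehicle in the absence of the drug (1.20), so that its E2 effect differed by 0.68 ± 0.10 (adjusted p = 0.00049). MBOAT2 differed by 0.62 ± 0.10, CHRNA2 by 0.48 ± 0.11, ZBTB16 by 0.42 and ADRA2A, which is not in that list, by 0.65 ± 0.14. In each of these the Enza libraries were below the vehicle libraries, as with MBOAT2 at 9.69 to 11.2 CPM with Enza and 21.4 to 23.8 CPM with vehicle. The same levels enter the difference by which these genes were called, so this is not a separate observation. The calls for ADRA2A and CHRNA2 were lost in 11 and 13 of 23 settings.

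Another group rose with E2 less in the presence of the drug than in its absence. AQP3, a water and glycerol channel (chromosome 9, 33441160 to 33447593), stood at 36.5, 38.4 and 42.03 CPM with E2+Enza, against 25.0, 27.5 and 22.4 CPM with Enza (0.64 ± 0.07). Without the drug it stood at 65.8, 61.6 and 63.1 CPM with E2, against 22.1, 23.9 and 23.0 CPM with vehicle (1.44), a difference of -0.81 ± 0.10 (adjusted p = 3.39e-05). DBI, a carrier of acyl-CoA (-0.67 ± 0.09), NAT1, an arylamine acetyltransferase (-0.72 ± 0.12), and SLC43A1, a transporter of large amino acids (-0.71), likewise had their highest levels with E2 alone, and the call of SLC43A1 was lost in 4 of 23 settings. NDRG1, a stress-responsive gene of the androgen list, stood at 50.3, 55.3 and 57.5 CPM with E2+Enza and 47.9, 52.2 and 45.3 CPM with Enza, with overlap, but at 91.7, 92.0 and 84.3 CPM with E2, against 40.7, 44.0 and 47.3 CPM with vehicle (a difference of -0.85 ± 0.09). IGFBP3, which binds insulin-like growth factors, differed by -0.79, KLF9 by -0.54 and FKBP5 by -0.32. FKBP5 thus rose strongly in both settings and by less with the drug, a call lost in 7 of 23 settings. Of the 43 genes in this direction 32 rose with E2 in the absence of the drug, against 17.1% of all genes. The same libraries enter the difference that picked the 43, so the pick itself favours such genes. SYT4 differed by -0.54 ± 0.09, having stood at 160, 169 and 150 CPM with E2 and at 171, 186 and 189 CPM with vehicle.

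**Figure D4:**
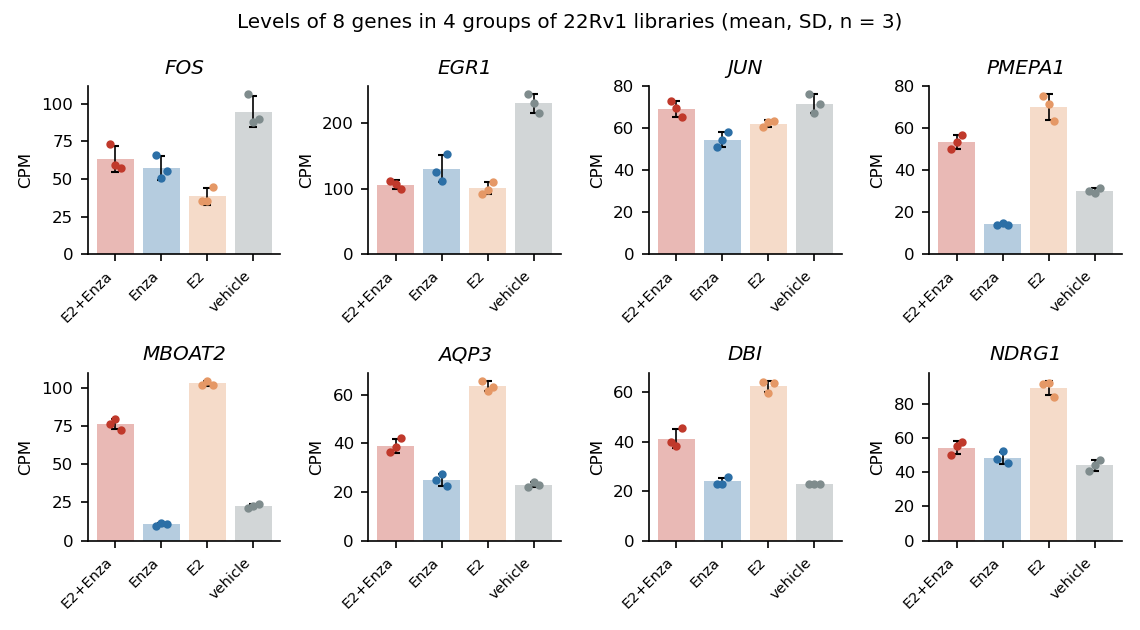
Level (CPM) of 8 genes in the E2+Enza, Enza, E2 and vehicle libraries of 22Rv1, as bars of the mean with the SD of 3 libraries and a point per library. FOS and EGR1 are highest with vehicle, PMEPA1 and MBOAT2 are lowest with Enza, and AQP3, DBI and NDRG1 are highest with E2 alone.

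The same addition of E2 to enzalutamide was compared between 22Rv1 and the other lines in a fit of all 54 libraries. Across 16026 genes the 22Rv1 fold changes had r = 0.33 with those of LNCaP and r = 0.29 with those of C4-2. For the overlaps, the 22Rv1 calls are those of the fit of its 18 libraries, and the LNCaP and C4-2 calls those of the fit of 54. In the fit of 54, 22Rv1 itself had 801 higher and 673 lower. Of the 611 genes that rose in 22Rv1, 257 rose in LNCaP (42.1%, and 17.4% of the 1478 that rose there, 9.22% of genes tested) and 43 fell. In C4-2, 173 rose (28.3%, and 24.5% of 706, 4.41% of genes tested) and 21 fell. Of the 569 that fell in 22Rv1, 205 fell in LNCaP (36.0%, and 15.8% of 1295, or 8.08%) and 92 in C4-2 (16.2%, and 19.6% of 469, or 2.93%). Of the 14866 genes tested in 22Rv1, 153 rose and 79 fell in all 3 lines. Among the 44 androgen response genes 26 rose in each line, against those 153 of 14866, and that list was chosen with earlier results known. The test of the difference called 1507 genes between 22Rv1 and LNCaP (9.4%, with 731 or 4.56% higher and 776 or 4.84% lower in 22Rv1) and 924 between 22Rv1 and C4-2 (5.77%, with 456 or 2.85% higher and 468 or 2.92% lower).

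Several leading genes of 22Rv1 had much larger effects there than in another line. ADRA2A changed by 0.09 ± 0.10 in LNCaP, where it was not called, and fell in C4-2 (-0.38 ± 0.10), so that 22Rv1 differed by 2.10 from LNCaP and by 2.57 from C4-2. F3 differed by 1.64 from LNCaP and 1.85 from C4-2, with 0.19 in LNCaP and -0.02 in C4-2 on the log2(CPM + 0.5) scale. With voom weights the F3 difference from LNCaP turned to -0.10 (adjusted p = 0.965 by limma). The F3 rise in 22Rv1 itself stayed between 1.13 and 2.36 in every setting run. Whether F3 differed from LNCaP thus depended on the setting. STEAP1 (1.72) and COLCA1 (1.65), a gene of colorectal cancer risk, differed from LNCaP, and so did COLEC12, a scavenger receptor that rose in 22Rv1 (0.46) and fell in LNCaP (-1.45). SLC38A4 (1.78), TMCC3 (1.73) and KCNMA1 (1.57) differed from C4-2, but for SLC38A4 the call was lost with voom weights (0.76, adjusted p = 0.685 by limma) and with a pseudocount of 0.1 (1.27). In the other direction, genes that rose strongly in LNCaP rose less in 22Rv1. MAF (-2.13), TMPRSS2 (-1.90) and GREB1 (-1.85) differed from LNCaP, where E2 raised them by 3.01, 2.27 and 2.12. MAF, a transcription factor, lay at 1.86 to 2.23 CPM with E2+Enza and 0.704 to 1.01 CPM with Enza in 22Rv1. PHLDB2 fell in 22Rv1 (-0.46) and rose in LNCaP (1.53). Against C4-2, TMPRSS2 (-1.36), LINC00639 (-1.70), SLC17A4 (-1.36), PCDH17 (-1.36) and the kinase PLK2 (-1.41) differed. With voom weights the calls of LINC00639 (-0.95, adjusted p = 0.718 by limma), SLC17A4 (-2.19) and PCDH17 (-2.16) were lost. KLK3 rose in all 3 lines, by 1.15 in 22Rv1, 1.35 in LNCaP and 0.58 in C4-2. Of the 15 leading genes on the lower side, 7 fell in LNCaP and 3 in C4-2, with AMIGO2 falling in each line (-1.01 in 22Rv1, -1.53 in LNCaP and -1.37 in C4-2).

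**Figure D5:**
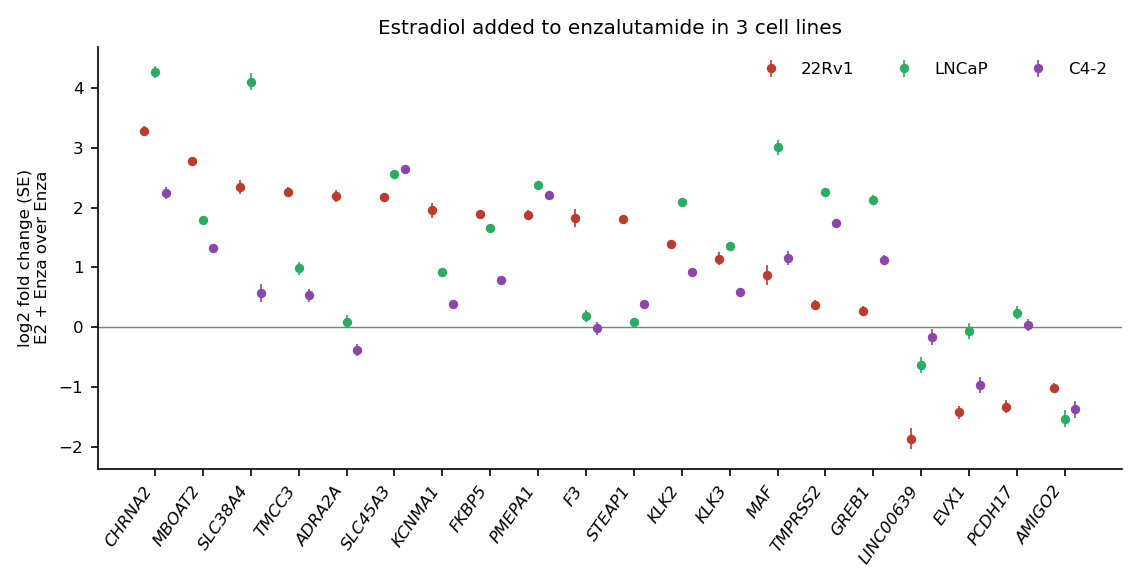
Log2 fold change (points) with SE (bars) of E2+Enza over Enza for 20 genes in 22Rv1, LNCaP and C4-2, 3 libraries per group. ADRA2A, F3 and STEAP1 are at 1.81 or more in 22Rv1 and between -0.38 and 0.39 in the other lines, while MAF, TMPRSS2 and GREB1 are higher in LNCaP than in 22Rv1. With voom weights, which are not plotted, the F3 difference between 22Rv1 and LNCaP turned to -0.10.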

How the data were processed

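Total RNA of 54 libraries (TRIzol, TruSeq stranded total RNA kit, per the labels' protocols) was sequenced. Per the submitters' processing notes, the tools were Trimmomatic, FastQC, edgeR and featureCounts with build hg38, no versions stated. The authors deposited a score per gene and library, a log2 CPM value rescaled so that each column sums to the same total. The rescaling was inverted, and 100% of values came out as whole reads within 0.01. The strand setting of counting is not given in the sources used here, so overlapping genes are uncertain, as are near-identical copies. CPM values from these reads and the authors' effective library sizes were tested as log2(CPM + 0.5) with limma 3.58.1 (trend, R 4.3.3) for genes that reached 1 CPM in 3 or more libraries. One fit held the 18 libraries of 22Rv1, all 6 treatment groups of that line, and another all 54 for differences between lines. Because the deposited unit is a score, no count model was run. Named genes were the 15 with the largest called change each way without overlap, 5 each way for other contrasts, fixed genes and up to 4 per list. Members and the 36 lists were chosen with earlier results of these data known. Alternatives were pseudocounts of 2 and 0.1, no filter, 3 other scalings, voom weights, a replicate block, other sets of libraries and leaving out each library. Some members are not reported here.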

Additional observations from a re-analysis of the deposited data

Results flagged for a closer look

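The effect of E2 in 22Rv1 differed with and without enzalutamide in 63 genes by a test of the difference, although this number rested strongly on single libraries. Among the named genes the difference (with minus without, log2) was 0.68 for PMEPA1, 0.65 for ADRA2A, 0.62 for MBOAT2, 0.54 for JUN, 0.48 for CHRNA2, 1.44 for FOS and 0.92 for EGR1. It was -0.81 for AQP3, -0.72 for NAT1, -0.71 for SLC43A1, -0.67 for DBI and -0.54 for SYT4. The calls of CHRNA2, ADRA2A and SLC43A1 were lost in 13, 11 and 4 of 23 settings.

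The effect of E2 in the presence of enzalutamide differed between 22Rv1 and LNCaP in 1507 genes. The difference was 2.10 for ADRA2A, 1.91 for COLEC12, 1.72 for STEAP1, 1.65 for COLCA1 and 1.64 for F3, and -2.13 for MAF, -1.98 for PHLDB2, -1.90 for TMPRSS2 and -1.85 for GREB1. Between 22Rv1 and C4-2 it differed in 924 genes, by 2.57 for ADRA2A, 1.85 for F3, 1.78 for SLC38A4, 1.73 for TMCC3 and 1.57 for KCNMA1, and by -1.70 for LINC00639, -1.41 for PLK2, -1.36 for TMPRSS2, -1.36 for SLC17A4 and -1.36 for PCDH17. With voom weights the calls of SLC38A4, LINC00639, SLC17A4 and PCDH17 against C4-2 were lost, and the difference of F3 from LNCaP turned to -0.10. What underlies these differences was not tested.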

How the results depend on the processing

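The number of genes called between E2+Enza and Enza was 851 to 1178 when 1 library was left out and 877 to 1474 in the other settings. Of 116 named genes called there, 92 kept their call in every setting. Leaving out 1 library gave 21 to 350 genes whose E2 effect differed with and without enzalutamide. That number was 35 with no filter, 39 with total read scaling, 152 in a fit of all 54 libraries and 109 without OSU+Enza library 2 and vehicle library 3. For 22Rv1 against LNCaP the range was 1260 to 1530 with 1 library left out. For 22Rv1 against C4-2 it was 759 to 993, and 493 with only the groups compared in the fit. The difference of F3 between 22Rv1 and LNCaP turned to -0.104 with voom weights. The causes were not tested. Same-numbered libraries of E2+Enza and Enza had r = -0.06, -0.24 and -0.31. For E2+Enza and E2 these were -0.07, -0.04 and -0.17, and for E2+Enza and vehicle 0.16, -0.03 and 0.23. With 3 libraries per group such values cannot settle whether replicate numbers pair the libraries. The replicate block gave 1165 genes between E2+Enza and Enza, 64 for the difference with and without the drug, 1490 against LNCaP and 907 against C4-2. Depth limits genes of few CPM, whose fold changes move with the pseudocount.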
